A study of Mus musculus with 4 samples.

Results

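Of the 15121 regions that were called as bound by Runx3 in splenic CD4+ dendritic cells (DC), 876 (5.79%) lay in what are called deserts here. Deserts are stretches between genes that are distant from the start of every transcript. The far end of a gene could be much nearer, as for a peak 19.42 kb from Dner. Another peak lay in a gap of only 7.584 kb between Itpkb and 6330403A02Rik. The 876 peaks were chosen by position alone. The centre of each was over 50 kb from the transcription start site (TSS) of every annotated transcript, coding or not, and was outside every gene body of GENCODE M1 on the mouse assembly mm9. The closest was 50073 bp from a TSS, the median distance was 90.96 kb and the largest was 789.2 kb. Another 451 peaks were as distant from a TSS but lay inside a long gene, so they were left out of the 876.

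Chromatin from CD11chiMHCII+CD4+ conventional DC of the spleen was immunoprecipitated in 2 samples with a polyclonal home-made antibody to Runx3, and 2 samples of whole cell extract served as input. Cells were gathered from about 15 mice, fixed fresh from the sort and frozen. The labels name no mutation or treatment in any sample. The strain was labelled C57BL/6 for 3 samples and C57BL/7 for 1 of the inputs. The study deposited 1 list of peaks called on the pooled samples, so that a peak has 1 score, no value per replicate, and no error of its own. Neither sample type can be compared with the other here, and spread between mice or between immunoprecipitates was not measured. The p-values below compare groups of peaks, take each peak as an independent count although neighbouring peaks share a locus, and cover counting error only.

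Runx3 is a DNA binding protein of the RUNX family. Its runt domain, held to DNA with the partner Cbfb, recognises the hexamer TGTGGT, which reads ACCACA on the opposite strand. RUNX proteins act at promoters and, more often, at enhancers, which are stretches of regulatory DNA that can act on a gene from a long distance by looping of the chromatin fibre. Enhancers of blood cells often join a RUNX site with a GAGGAA-type site of the ETS factor PU.1, and those of DC also with composite sites at which PU.1 and IRF4 or IRF8 bind together. In DC, Runx3 is known for its part in responses to TGF-beta.

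The sequences below show what such regions look like. They are 8 of the 10 strongest, and the strongest region next to Id2, Btg1 and Ccnd1, which stood in deserts with many peaks. Each line gives 90 bases of the forward strand of mm9 (NCBIM37) around the RUNX hexamer nearest to the peak centre, named by the protein-coding genes on its left and right. Capitals mark TGTGGT or ACCACA. In the region between Car10 and Utp18, which had no such hexamer, they mark the related ACCGCA. The region upstream of Runx3 had neither form, and bases around its centre are shown with no capitals.
Cacna1e to Ier5, chr1:156862250-156862339: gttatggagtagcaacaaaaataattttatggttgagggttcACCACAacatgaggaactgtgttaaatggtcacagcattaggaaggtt
Irf2bp2 to Tomm20, first, chr8:129356697-129356786: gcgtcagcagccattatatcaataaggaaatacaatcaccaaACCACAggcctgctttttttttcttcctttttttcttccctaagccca
Irf2bp2 to Tomm20, second, chr8:129371587-129371676: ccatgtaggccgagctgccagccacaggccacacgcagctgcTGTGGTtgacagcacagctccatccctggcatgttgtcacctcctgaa
Wwox to Maf, chr8:117922380-117922469: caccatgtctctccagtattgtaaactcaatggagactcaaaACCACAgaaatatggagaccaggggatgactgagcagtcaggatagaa
Tle3 to Rplp1, chr9:61550338-61550427: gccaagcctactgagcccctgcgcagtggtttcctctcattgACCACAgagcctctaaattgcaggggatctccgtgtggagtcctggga
Car10 to Utp18, chr11:93683121-93683210: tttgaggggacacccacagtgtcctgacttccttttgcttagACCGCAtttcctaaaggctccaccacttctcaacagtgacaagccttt
Zfp238 to 1700016C15Rik, chr1:179597743-179597832: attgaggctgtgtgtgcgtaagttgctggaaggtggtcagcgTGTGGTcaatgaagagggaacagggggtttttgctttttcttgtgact
Syf2 to Runx3, chr4:134625850-134625939: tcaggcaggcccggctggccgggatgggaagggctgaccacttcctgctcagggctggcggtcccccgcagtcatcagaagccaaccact
Id2 to Rnf144a, chr12:25925102-25925191: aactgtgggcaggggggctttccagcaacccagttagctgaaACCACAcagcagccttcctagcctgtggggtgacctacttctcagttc
Eea1 to Btg1, chr10:95833529-95833618: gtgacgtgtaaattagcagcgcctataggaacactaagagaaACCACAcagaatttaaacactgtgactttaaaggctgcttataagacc
Ccnd1 to Tpcn2, chr7:152216804-152216893: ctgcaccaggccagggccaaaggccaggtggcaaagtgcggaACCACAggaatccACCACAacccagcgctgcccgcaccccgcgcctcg

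A perfect hexamer was present in 9 of these 11 regions. The hexamer shown was 10 bp from the peak centre in the strongest region, which lies in the desert beside Ier5, and 26 bp from it in the region beside Id2. It was 302 bp from the centre in the region between Wwox and Maf, so that there it sat at the edge of the called peak. The Ccnd1 region held 2 hexamers within the printed bases. The strongest region also has GAGGAA, in lower case, on the right of its capitals.

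Desert peaks were found over nearly the whole range of score ranks. Their median score was 12.26, from 1.82 to 187.2, against 12.14 over the whole list. The score is the value written by the peak caller MACS2, in a unit that is not given in the sources used here; it ranks peaks within the list. Of the 876, 439 (50.1%, 95% Wilson interval 46.8 to 53.4) reached the list median, where 50% of all peaks did so. The same share was 52.3% among 1940 intergenic peaks at 10 to 50 kb from a TSS, a difference of -2.15 percentage points (interval -6.13 to 1.83, p = 0.290, two-sided Fisher's exact test). It was 48.3% among 2314 intronic peaks more than 10 kb from a TSS, a difference of 1.84 points (interval -2.04 to 5.72, p = 0.362, Fisher's exact test). Neither difference was larger than counting error, and 231 desert peaks (26.4%) reached the upper quartile of the list, 23.19. Among the 100 strongest peaks 7 were desert peaks, and among the 500 strongest 31.

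**Figure D1:**
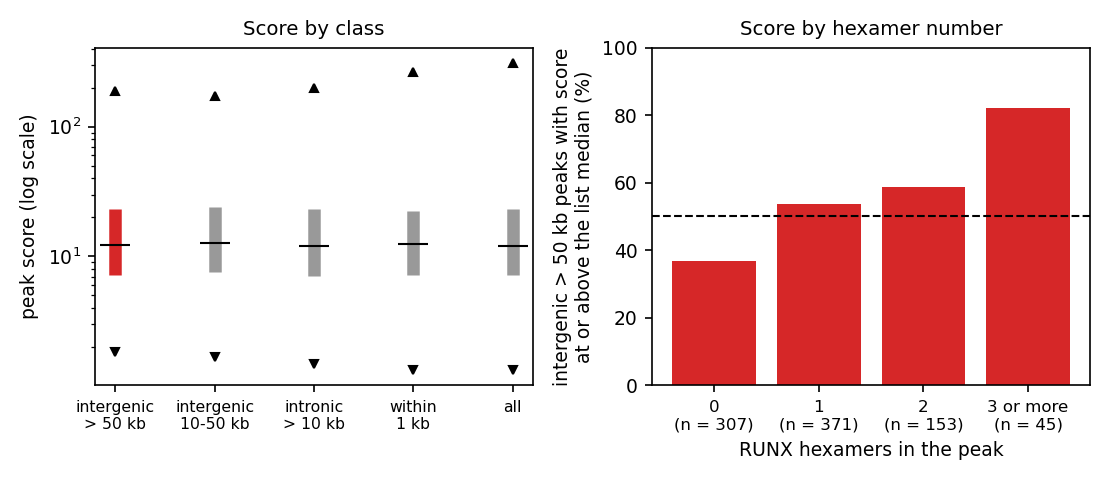
Left, peak score on a log axis in each class of peaks, with the bar from the lower to the upper quartile, a line at the median and triangles at the lowest and highest peak. The medians lie between 11.96 and 12.69 and the bars overlap almost fully. Right, for the 876 intergenic peaks beyond 50 kb, the percentage whose score reached the median of the whole list, by number of RUNX hexamers in the peak; it runs from 36.8% with none to 82.2% with 3 or more, and the dashed line is the share over all peaks.

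The deserts were sparsely bound for their size. Sequence that meets the same rule makes up 718.8 Mb, or 28.1% of the sequenced genome, and holds 1.219 peaks per Mb (95% Poisson interval 1.139 to 1.302), or 1 peak in 820.6 kb. Intergenic sequence at 10 to 50 kb held 3.872 peaks per Mb, intronic sequence beyond 10 kb held 3.805, and sequence within 1 kb of a TSS held 54.1. Within the deserts the density was 1.962 per Mb at 50 to 100 kb (506 peaks), 1.128 at 100 to 200 kb (262 peaks), 0.549 at 200 to 500 kb (103 peaks) and 0.122 beyond 500 kb (5 peaks, interval 0.0395 to 0.284). Each of these 4 intervals lies below the one before it and none overlap. How well reads could be placed in each territory was not tested.

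**Figure D2:**
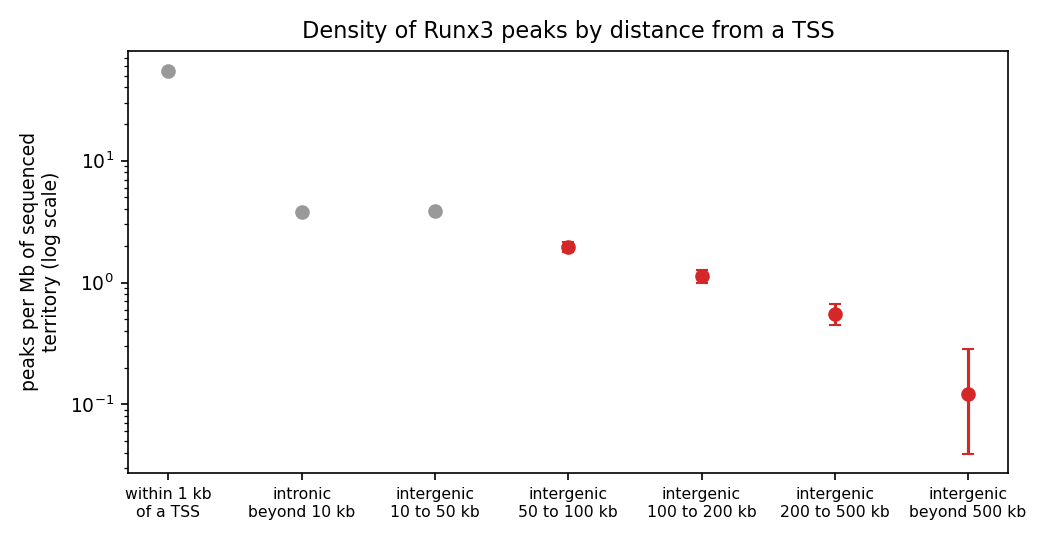
Runx3 peaks per Mb of sequenced territory, on a log axis, for promoter, intronic and intergenic territory at growing distance from the nearest TSS. Points are counts divided by Mb, bars are 95% Poisson intervals, and red marks the intergenic territory beyond 50 kb, where density falls from 1.962 at 50 to 100 kb to 0.122 beyond 500 kb.

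Up to 500 kb, score and hexamer content moved less than density. The median score was 12.69 at 50 to 100 kb, 12.69 at 100 to 200 kb and 11.24 at 200 to 500 kb. TGTGGT was present in 67.0% (interval 62.8 to 71.0), 62.2% (56.2 to 67.9) and 61.2% (51.5 to 70.0) of these peaks, and the intervals overlap. The 5 peaks beyond 500 kb had a median score of 7.91, and 4 held TGTGGT. All of these values are descriptions, and the trend was not tested.

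By chromosome, desert peaks were densest on chromosome 19 (31 peaks, 2.45 per Mb of desert, interval 1.66 to 3.48), chromosome 10 (94 peaks, 2.30 per Mb, 1.86 to 2.82) and chromosome 13 (78 peaks, 2.01 per Mb, 1.59 to 2.51). Chromosome 16 was the sparsest autosome, with 22 peaks and 0.649 per Mb (0.406 to 0.982). On the X chromosome only 2 of the 876 peaks were found in 32.85 Mb of desert, 0.0609 per Mb (0.00737 to 0.220), against 1.27 per Mb over the autosomes. Peaks of all kinds were also sparser on X, at 1.10 per Mb against 6.24 on the autosomes. The 2 regions, near P2ry10 and near Nap1l3, had scores of 17.98 and 6.57 and each held TGTGGT. The sex of the mice is not given in the sources used here.

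Of the 13 motifs searched, the RUNX hexamer had the largest difference in share between desert peaks and the DNA around them. TGTGGT, searched on both strands, was in 569 of the 876 (65.0%, interval 61.7 to 68.0), where 54% of all 15121 peaks held it. Each peak was compared with a window of equal width 10 kb downstream, at higher coordinates, and 866 had such a window free of other peaks and unsequenced bases. The hexamer was in 65.1% of those peaks and 27.7% of their windows. In 390 pairs only the peak had it and in 66 only the window (p = 5.23e-57, two-sided exact McNemar test). Within the 200 bp around the centre the shares were 54.4% and 13.97%.

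Against the classes of peaks most like them, no difference in hexamer content passed the test. The share was 65.5% at 10 to 50 kb, a difference of -0.51 points (interval -4.34 to 3.25, p = 0.798, two-sided Fisher's exact test). It was 68.3% in intronic peaks beyond 10 kb, a difference of -3.37 points (interval -7.09 to 0.27, p = 0.0755, Fisher's exact test). The intronic comparison was past the threshold of 0.05 under 3 of its alternatives, among them a limit of 100 kb, where the difference was -6.16 points (Fisher's exact p = 0.0198). Promoter peaks, within 1 kb of a TSS, held it in 34.4%.

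The hexamer was close to the centre of the called peak, which is the midpoint between its start and end. In the 569 peaks with a hexamer the one nearest to the centre was at a median of 40.5 bp from it, in 334 (58.7%) within 50 bp and in 480 (84.4%) within 100 bp. Counted in bins of 20 bp, matches reached 11.3 per 100 regions at the densest bin, and were 1.74 per 100 beyond 200 bp from the centre. In the windows 10 kb downstream they were 1.65 at the middle and 1.79 at the edges. GAGGAA rose less at the centre, to at most 8.11 per 100 regions against 2.53 at the edges. For both hexamers the densest bins lay on the side of higher coordinates, and this was also so in the peaks at 10 to 50 kb.

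**Figure D3:**
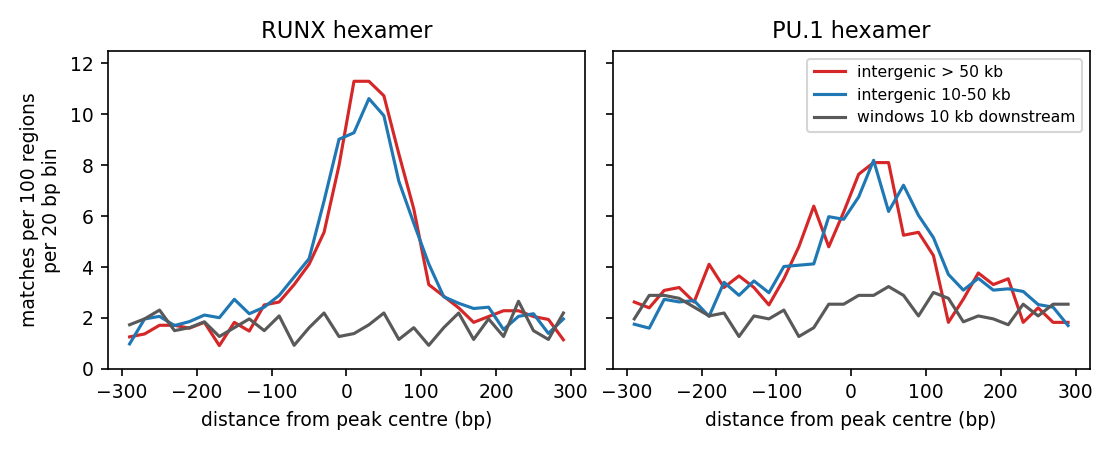
Matches to the RUNX hexamer (left) and the PU.1 hexamer (right) per 100 regions in bins of 20 bp, against distance from the peak centre in bp along the forward strand. Red is the 876 intergenic peaks beyond 50 kb, blue the intergenic peaks at 10 to 50 kb and grey the windows 10 kb downstream of the red set. Red and blue peak near the centre, the RUNX hexamer at 11.3 and 10.6 matches per 100 regions, and grey is flat.

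Peaks with more hexamers had higher scores. The median score was 9.84 in the 307 desert peaks with none, 13.43 in 371 with 1, 14.2 in 153 with 2 and 30.41 in 45 with 3 or more. Their median widths were 350, 393, 416 and 496 bp, and wider peaks give more room for a match. Scores that reached the list median were found in 57.3% of peaks with TGTGGT and 36.8% of those without (odds ratio 2.30, p = 8.44e-09, two-sided Fisher's exact test, adjusted p = 1.10e-07 over the 13 motifs). In this search of whole peaks TGACGT, the E-box, IRF, KLF and PU.1 motifs also went with higher scores (adjusted p from 0.00392 to 0.0277, exact tests). When only the 200 bp around the centre were searched, which takes out the difference in width, the shares were 56.1% and 43.0% (Fisher's exact p = 1.43e-04, adjusted p = 0.00186 over the 13 motifs). No other motif was past 0.05 in that search, where the lowest adjusted p among them was 0.743, for TGACGT. In 4 equal groups of 219 desert peaks from weakest to strongest, TGTGGT was in 52.1%, 59.4%, 72.6% and 75.8% of whole peaks. Their median width rose from 295 to 535 bp, and within 200 bp of sequence at the centre the shares were 44.8%, 51.1%, 62.6% and 58.9%.

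Desert peaks also held other motifs of myeloid enhancers more often than their windows. The panel of 13 motifs included 2 control hexamers with shuffled letters (GGTTGT and AGTCGT). Exact McNemar tests were used, Benjamini-Hochberg adjusted over the panel. Of the 13 motifs, 7 passed the test with a larger share in peaks than in windows, and 0 with a smaller one. The 7 were TGTGGT, the zDC hexamer described further on and the 5 that follow. The PU.1 hexamer GAGGAA was in 60.4% of peaks and 35.5% of windows (exact McNemar test, adjusted p = 9.97e-25). The ETS-IRF composite element, GGAA and GAAA apart by any pair of bases, was in 12.8% and 5.20% (adjusted exact p = 1.93e-07). The E-box CAGCTG, bound by E proteins such as E2-2 and E2A, was in 22.4% and 14.8% (adjusted exact p = 2.44e-04). The AP-1 site TGANTCA was in 11.3% and 6.81% (adjusted exact p = 0.00364). The CTCF motif was in 9 peaks and 1 window (adjusted exact p = 0.0399). The remaining 4 sites did not pass the test, with adjusted exact p from 0.0608 to 0.539. They were those of C/EBP (TTGCNNAA, 20.2% of peaks and 16.3% of windows), ETS (CCGGAAG, 2.89% and 1.501%), IRF (GAAANNGAA, 16.4% and 15.1%) and KLF (GGGTGG, 26.8% and 23.9%). The control hexamers were in 20.1% and 16.9% (adjusted exact p = 0.0989) and in 4.16% and 3.46% (adjusted p = 0.539). Both controls thus leaned towards peaks without passing the test, and every other motif of the panel leaned the same way. TGTGGT, the PU.1 hexamer, the ETS-IRF composite and the E-box kept their calls under all 5 alternatives tried on the panel, while AP-1 and CTCF each lost it under several of them. KLF gained a call in the 200 bp around the centre (16.6% of peaks and 10.7% of windows). The excess over windows did not set desert peaks apart from other peaks distant from a TSS. GAGGAA was in 60.5% of all desert peaks, 62.4% of peaks at 10 to 50 kb and 60.2% of intronic peaks beyond 10 kb. For the E-box these shares were 22.6%, 23.3% and 23.6%, and for AP-1 11.2%, 13.5% and 12.7%. Over all 15121 peaks the 3 motifs were in 53.65%, 23.8% and 9.5%.

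The hexamer TGACGT, which the study ties to zDC (Zbtb46), a zinc finger factor of conventional DC, was uncommon in the deserts. Only 62 of 876 peaks (7.08%, interval 5.56 to 8.97) had a match. In pairs, 7.16% of peaks and 3.81% of windows had one (61 pairs with the peak only, 32 with the window only, exact McNemar p = 0.00346, adjusted p = 0.00750 over the panel). Adjusted over the panel it was not past 0.05 with a limit of 100 kb or with 1 peak per desert. Its share was 7.165% in intergenic peaks at 10 to 50 kb and 7.35% in intronic peaks beyond 10 kb, both close to that of desert peaks. In promoter peaks the share was 17.0%, and over all peaks 11.0%.

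Against the intergenic peaks at 10 to 50 kb, fewer desert peaks held the KLF motif GGGTGG (26.7% against 33.9%, adjusted p = 0.00215, two-sided Fisher's exact tests over the panel) and fewer held the long motif of CTCF, a protein of chromatin loop anchors (9 peaks, 1.03% against 2.73%, adjusted p = 0.0218). Against intronic peaks neither difference passed the test (KLF 30.8%, adjusted p = 0.174, and CTCF 1.25%, adjusted p = 0.888, Fisher's exact tests). GC content moved the same way. Its median was 46.3% in desert peaks, 47.5% at 10 to 50 kb and 59.8% at promoters, and 19.2% of desert peaks against 27.7% at 10 to 50 kb reached the list median (p = 9.91e-07, two-sided Fisher's exact test). The part of GC content in the lower KLF share was not tested. The ETS-IRF composite was in 13.0% of desert peaks, 9.85% of those at 10 to 50 kb and 9.72% of the intronic ones, but these differences did not pass the test after adjustment (Fisher's exact tests, adjusted p = 0.0660 and 0.108). The ratio of observed to expected CpG was 0.6 or more, as in CpG islands, in 23 desert peaks (2.63%), fewer than the 5.98% at 10 to 50 kb (p = 1.01e-04, two-sided Fisher's exact test) and more than the 1.21% of intronic peaks (p = 0.00669, same exact test). At promoters it was 71.9%.

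**Figure D4:**
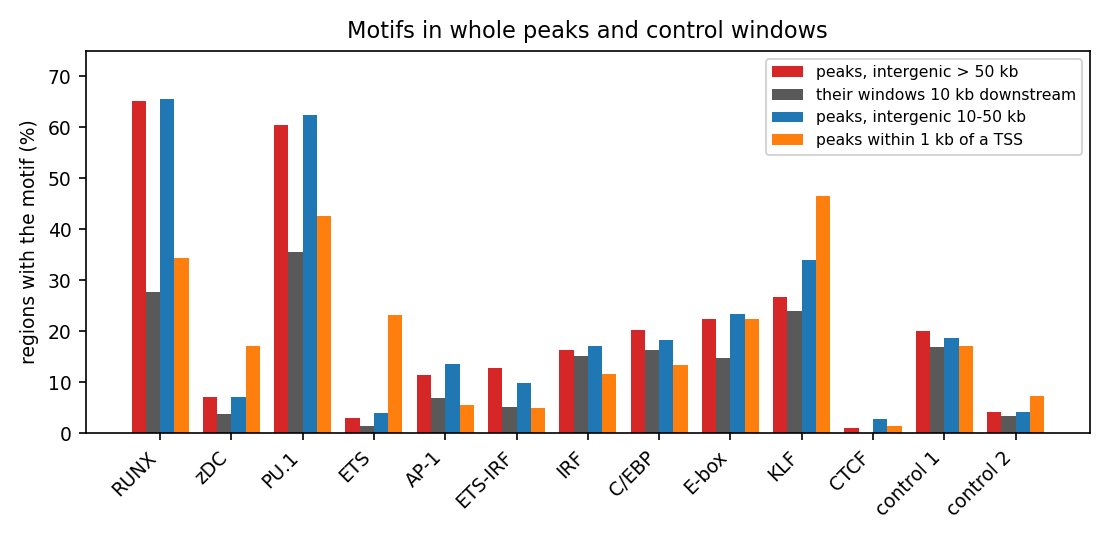
Percentage of regions that hold each of 13 motifs, searched on both strands of whole peaks, in the intergenic peaks beyond 50 kb (red, 866 with a window), their windows 10 kb downstream (grey), intergenic peaks at 10 to 50 kb (blue) and peaks within 1 kb of a TSS (orange). Red and blue bars stand above grey for RUNX (65.1% against 27.7%) and PU.1 (60.4% against 35.5%), while the orange bars differ, with RUNX at 34.4%. Control 1 and control 2 are shuffled hexamers.

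A RUNX hexamer was not needed for a desert peak to be called. Of the 307 without TGTGGT, 58 had TGCGGT and 37 had CGTGGT, which differ from it at 1 base, and 92 (30.0%) had a match to YGYGGT, in which Y is C or T. Over all desert peaks YGYGGT was in 75.5%, beside 77.7% of peaks at 10 to 50 kb. In pairs it was in 75.6% of desert peaks and 34.5% of their windows. This left 215 of 876 (24.5%) with no match to YGYGGT. Of the 215, 169 (78.6%) held a motif of PU.1, AP-1, ETS-IRF, IRF, C/EBP or zDC, close to the 80.6% of desert peaks with YGYGGT and above the 59.9% of windows. Both TGTGGT and GAGGAA were in 354 desert peaks (40.4%, and 11.0% of windows) and neither was in 131 (15.0%, and 47.8% of windows). GAGGAA was in 62.2% of desert peaks with TGTGGT (interval 58.2 to 66.1) and in 57.3% of those without (51.7 to 62.7), intervals that overlap.

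The strongest desert peak, chr1:156861994-156862576, had a score of 187.2 and rank 12 in the whole list. It lay 84.5 kb from the TSS of Ier5, an immediate early response gene, in the desert that separates it from Cacna1e, a calcium channel gene. Next came a peak of score 163.1 on chromosome 18, 55.3 kb upstream of Ctnna1, which encodes alpha-catenin. A pair of peaks between Irf2bp2 and Tomm20 followed, chr8:129355896-129357034 with 158.8 and chr8:129371238-129371877 with 151.2. Irf2bp2 encodes a corepressor that partners IRF2, and Tomm20 a receptor for protein import into mitochondria.

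The peak chr8:117921796-117922450 had a score of 139.7 and lay between Wwox and Maf, 308.9 kb from the TSS of Maf, a bZIP factor of macrophages and DC. The peak chr9:61549731-61550790 had 115.9 and lay in the desert from Tle3, a corepressor of the Groucho family that binds RUNX proteins, to Rplp1, a ribosomal protein gene. On chromosome 11 a peak of score 114 lay 54.4 kb from the TSS of Utp18 and held no TGTGGT. Also among the 10 strongest were chr1:179597403-179598043, with 104.3, between Zfp238 and 1700016C15Rik, and chr4:134625542-134626247, with 99.32, which lay 50.7 kb upstream of the TSS of Runx3 itself. This last one had a GC content of 60.8% and no TGTGGT.

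Some desert peaks stood close to another peak, in a smaller share than peaks nearer to a TSS. Another peak lay within 10 kb of 278 of them (31.7%), where 43% of all peaks had such a neighbour. At 10 to 50 kb the share was 38.2%, a difference of -6.46 points (interval -10.2 to -2.65, p = 0.000953, two-sided Fisher's exact test). The median distance to the next peak was 28.2 kb in deserts and 15.0 kb at 10 to 50 kb. Peaks were also sparser in deserts, at 1.219 per Mb against 3.872 at 10 to 50 kb. Neither the shares nor the distances were adjusted for this density, so whether desert peaks group more or less for their density was not tested.

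Most deserts were empty and a few held many peaks. Among 4181 intervals between neighbouring genes with sequence beyond 50 kb, 454 (10.9%) held at least 1 desert peak. Of these, 274 held 1, 146 held 2 to 4, and 34 held 5 or more, which together had 241 of the 876 peaks (27.5%). The 11 intervals with 8 or more held 113 peaks (12.9%). Intervals with a peak had more desert sequence (median 129.2 kb) than those without (76.2 kb). Of the 78 intervals with over 1 Mb of desert, however, 69 held none, and the largest empty one had 2.284 Mb of desert.

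The interval between Irf2bp2 and Tomm20 (chr8:129117337-129458042) held 15 desert peaks in 251.5 kb, 59.6 per Mb, with scores from 2.3 to 158.8 and a median of 9.2. TGTGGT was in 10 of them. Besides the pair named above, peaks of 55.82 and 53.21 stood 164.7 and 210.8 kb from Irf2bp2, without a hexamer. The others were weaker, at 37.12 or less.

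The interval beside Id2 (chr12:25780958-26372665) also held 15 desert peaks, and Id2 was the nearest protein-coding gene of them all. Id2 encodes an inhibitor of E proteins. The study cites earlier work in which mice without Id2 were deficient in CD8+ DC. The lowest score was 4.23, the median 15.34 and the highest 60.23, and 7 peaks held TGTGGT. The strongest, chr12:25924675-25925567, lay 144.2 kb upstream of the Id2 start, and the second, of score 36.63, 158.9 kb upstream with no hexamer. The peaks were spread over 281.2 kb.

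Btg1, which restrains cell division, flanks the interval chr10:95627066-96079634, with 13 desert peaks of scores 3.17 to 69.31 and TGTGGT in 7. Its strongest peak was chr10:95833313-95834001. Beside Ccnd1, which encodes cyclin D1 and drives entry into the cell cycle, 8 peaks stood within 82.1 kb, with scores from 4.23 to 91.88. The strongest of these, chr7:152216433-152217155 with 91.88, and its neighbour chr7:152214916-152215805 with 84.41 held 2 and 5 hexamers.

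The other intervals with 8 or more peaks are named here by the protein-coding genes on their left and right. They lay between Uaca and Gm10655 on chromosome 9 (11 peaks, highest score 66.99), between St3gal1 and Zfat on chromosome 15 (9 peaks, 60.23), and between Cd83, a maturation marker of DC, and Jarid2, a Polycomb component, on chromosome 13 (9 peaks, 52.15). Jarid2 was the nearest protein-coding gene of all 9 peaks in this last interval. Further such intervals lay beside Ptger4, which encodes a prostaglandin E2 receptor, on chromosome 15 (9 peaks, 37.74), between Tle3 and Rplp1 (8 peaks, 115.9), between Haao and Zfp36l2, an mRNA decay factor, on chromosome 17 (8 peaks, 43.03), and between Gadd45g, a stress response gene, and Diras2 on chromosome 13 (8 peaks, 35.17). Other annotated genes stood between the interval and Cd83 (Gm5083), Haao (a 5S rRNA gene) and Gadd45g (Gm16767).

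**Figure D5:**
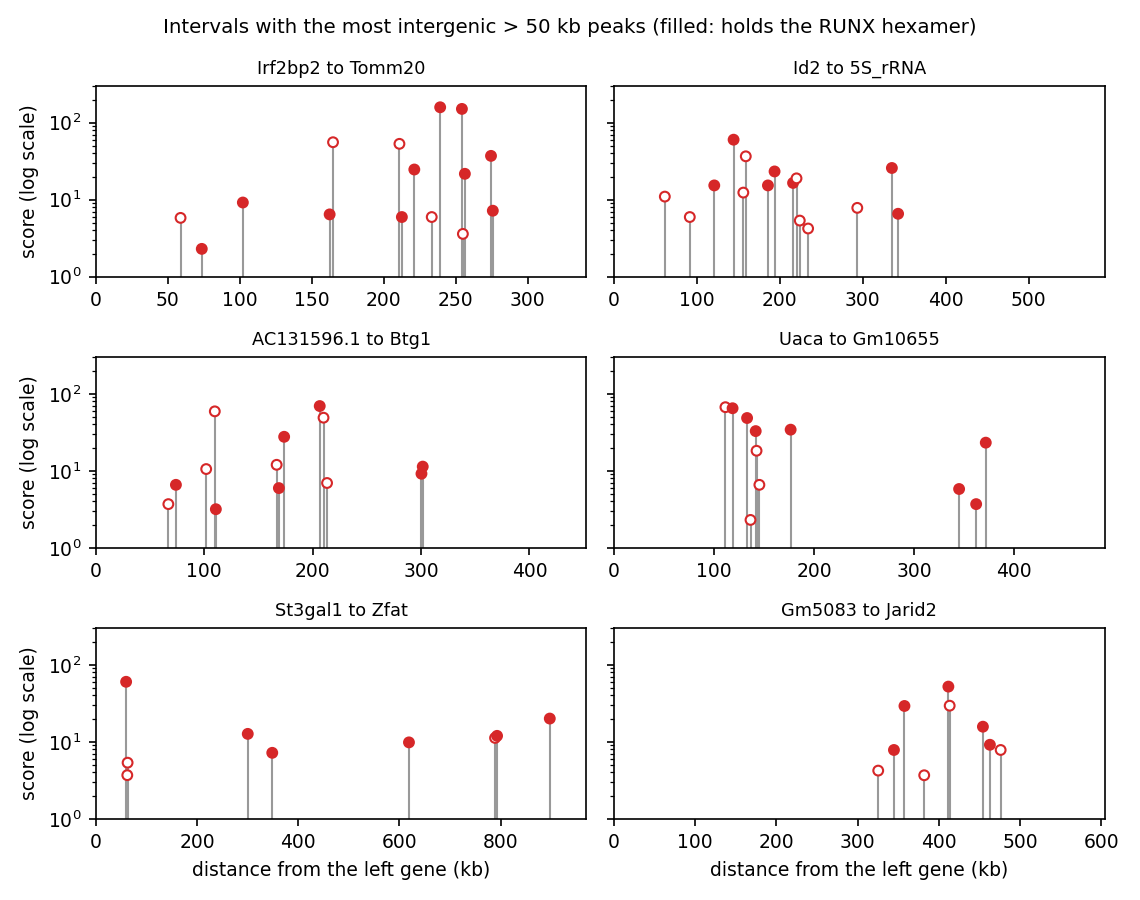
Score of each intergenic peak beyond 50 kb, on a log axis, against its distance in kb from the gene at the left end of the interval, for the 6 intervals between neighbouring annotated genes of any type that hold the most such peaks. Filled points hold the RUNX hexamer and open points do not; 10 of 15 are filled between Irf2bp2 and Tomm20 and 7 of 15 beside Id2.

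The 5 peaks farthest from any TSS had scores from 3.17 to 16.53. At 789.2 kb, chr12:94188812-94189078 had a score of 3.17, and on the same chromosome a peak at 579.6 kb had 7.12. At 662.9 kb a peak near Cdc73 on chromosome 1 had 16.53. The last pair, at 525.7 kb in the desert between St3gal1 and Zfat and at 523.7 kb from a U6 gene on chromosome 10, had 9.84 and 7.91. TGTGGT was in 4 of the 5.

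Just inside the limit of 50 kb were a peak beside 4930426L09Rik (50.07 kb, score 14.2), one beside Arrdc4 (50.1 kb, 7.84) and one whose nearest protein-coding gene was Zeb2, a repressor of DC and macrophages (50.18 kb from a pseudogene, 28.65). Just outside it were peaks near Spp2 (49.92 kb, 13.43), Mfge8 (49.87 kb, 6.45) and Odc1 (49.87 kb, 26.73).

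The nearest TSS of any type belonged to a protein-coding gene for 577 desert peaks (65.9%) and to another gene type for 299. The median distance to a protein-coding TSS was 110.5 kb, and 519 peaks (59.2%) were upstream of that TSS. By this nearest TSS, which is an assignment and not a measured target, the 876 peaks belonged to 491 protein-coding genes, 2.21% of the 22208 annotated. Of the 491, 318 had 1 peak and 28 had 5 or more. Those with 8 or more were Id2 (15 peaks), Tomm20 (10), Btg1, Jarid2 and Ptger4 (9 each), and Ccnd1, Ubl3, Gm9869 and Klf4 (8 each).

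Genes nearest to a desert peak were also often bound at their own promoter. Of the 491, 165 (33.6%, interval 29.6 to 37.9) had a peak within 1 kb of a TSS. Of 3772 genes with desert sequence but no desert peak, 645 did (17.1%, 15.9 to 18.3), and of all protein-coding genes 25.03%. Among the 85 genes with 3 or more desert peaks the share was 49.4% (39.0 to 59.8). These shares are descriptions without a test, and expression of the genes was not measured here.

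Of a list of 79 transcription factors and other regulators of gene expression in DC and myeloid cells, 19 (24.1%) were nearest to a desert peak. Of the 41 with desert sequence this was 46.3%, where 11.5% of the 4263 protein-coding genes with desert sequence were nearest to one. They had 69 peaks, or 7.42 per Mb of their desert sequence, beside 1.219 per Mb for all genes. In order of their best score they began with Maf (139.7), Runx3 (99.32), Id2 (60.23), Irf2bp2 (55.82), Zfp36l2 (43.03), Nr4a3 (35.09), Mef2a (34.2) and Klf4 (32.29). Runx3 had 4 such peaks, all upstream, with scores of 4.79, 14.96, 15.73 and 99.32. Klf4, a zinc finger factor of monocytes and DC, had 8, from 4.21 to 32.29. This list and those that follow were chosen with earlier results of these data known, so that their density is no independent support.

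Genes that control survival and division had the highest density of these lists, with 31 peaks and 20.9 per Mb. They were 6 of 28 genes (21.4%, beside 2.21% of all), and 75% of the 8 with desert sequence. Among them were Ccnd1 (8 peaks, best score 91.88), Btg1 (9 peaks, 69.31), Pik3r1 (43.14), Pim1 (30.41) and Zfp36l1 (29.48). Of 66 surface receptors of DC, 5 (7.58%) were nearest to a desert peak, 38.5% of the 13 with desert sequence, with 10 peaks and 5.45 per Mb. These were Tgfbr2 (38.27), a TGF-beta receptor with 3 peaks, S1pr1 (28.55), Cd83 (20.83), Kit (19.24) and Cxcr4 (10.53). Of 31 cytokine and chemokine genes 2 (6.45%, and 25% of the 8 with desert sequence) had such peaks, at 3.84 per Mb. They were Vegfa (1 peak, 45.96) and Il12b (2 peaks, 14.2 at most).

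Neural cadherins and axon guidance genes, a control list with large deserts, had 2 peaks in 29.67 Mb, or 0.0674 per Mb, beside Efna5 (9.16) and Pcdh9 (6.45). Lens crystallins and keratins, the other control, had 2 peaks in 0.329 Mb, or 6.09 per Mb, beside Cryba4 (7.06) and Cryaa (6.57). The second value rests on 3 genes with any desert sequence, and it was above the 5.45 and 3.84 per Mb of the receptor and cytokine lists. In the neural list the median desert sequence per gene was 929.7 kb, against 103.6 kb in the list of transcription factors and regulators. The lists were not matched for this size, and density fell with distance from a TSS.

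The study also listed genes that differ in expression between Runx3-/- and control CD4+ DC, measured on other samples. Of 400 of these that were matched to the annotation, 27 (6.75%) were nearest to a desert peak, 23.7% of the 114 with desert sequence. Their 53 peaks were 6.05% of the 876, where 4.08% of all peaks had such a gene nearest. At 10 to 50 kb the share was 5%, a difference of 1.05 points (interval -0.70 to 3.04, p = 0.277, two-sided Fisher's exact test), which was within counting error. By best score they began with Maf (139.7), Runx3 (99.32), Cacna1e (84.58), Ampd3 (77.43), Fam190a (52.58), Sema6d (41.11), Fabp5 (38.99) and Sash1 (34.2). Runx3 is itself the gene disrupted in the Runx3-/- mice, and its 4 peaks are counted among the 53. Of 193 genes listed for Esamhi DC, 11 (5.70%, and 24.4% of the 45 with desert sequence) were nearest to a desert peak, led by Gcnt1 (83.44). Their 21 peaks were 2.40% of desert peaks, beside 2.53% at 10 to 50 kb (p = 0.897, two-sided Fisher's exact test).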

How the data were processed

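The authors aligned ChIP-seq reads of 50 bp to mm9 with Bowtie and called peaks with MACS2, and the submitters' processing notes also name CASAVA 1.8. Versions of the aligner and caller, the threshold and the handling of duplicates are not given in the sources used here. The deposited file holds a start, an end and a score for each of 15121 peaks, whose unit is not stated. Reads per sample were not analysed here.

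Peaks were placed by their centre against GENCODE M1 on chromosomes 1 to 19 and X. Positions count from 1. Peaks were compared by Fisher's exact tests and with windows of equal width 10 kb downstream by exact McNemar tests, at 0.05, with Wilson, Newcombe and Poisson 95% intervals, in Python 3.11.15 with scipy 1.17.1, tested on simulated data. Densities divide counts by sequenced bases that meet the same rule. The members, motifs and gene lists were chosen with earlier results of these data known. Named were the 10 strongest peaks (1 of them, with its gene, is not reported here), the 5 farthest, 3 on each side of the limit, the 10 intervals with most peaks and 1 tied with them, and up to 8 genes per list by best score. Other genes, sequences, comparisons of CpG and of the panel between classes, and promoter shares were chosen after their values were seen. Regions of chromosome 18 are not printed as sequence.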

Additional observations from a re-analysis of the deposited data

How the results depend on the processing

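No paired analysis was possible because the deposited list is 1 call on pooled samples without values per replicate, which also meant that no replicate could be left out. Of the alternatives tried, 77 kept the direction and side of the threshold, or the value, of their result, among them every one for TGTGGT and (by p not adjusted over the panel) TGACGT against windows, for GC content and for neighbours within 10 kb. The difference in TGTGGT from peaks at 10 to 50 kb changed sign without passing the test, to 1.38 points in peaks at or above the list median and 1.40 points in the 200 bp around the centre. That from intronic peaks passed it with protein-coding TSS only (-3.53 points, Fisher's exact p = 0.0301), a limit of 100 kb (-6.16, p = 0.0198) and peaks closer than 300 bp joined (-3.71, p = 0.0490). The share with a responsive nearest gene changed sign with the Esamhi list (-0.13 points, Fisher's exact p = 0.897). The density was 0.611 per Mb for peaks at or above the list median, 1.36 with protein-coding TSS only and 0.803 beyond 100 kb. Between 5 and 7 of the 13 motifs passed the adjusted exact McNemar test with a larger share in peaks than in windows under every alternative. The cause of these changes was not tested. Depth limits how weak a region could be called, so an empty desert is only one in which none was called.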
